A study of Oryza sativa Indica Group with 12 samples.

Results

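Plants that run short of oxygen keep glycolysis going by ethanolic fermentation, in which pyruvate decarboxylase (PDC) turns pyruvate into acetaldehyde and alcohol dehydrogenase (ADH) reduces the acetaldehyde to ethanol and returns NAD+. Non-symbiotic hemoglobins (HB) of plants bind oxygen very tightly and turn nitric oxide into nitrate, and they are known for their induction in flooded tissue. Rice can germinate under water, and its fermentation genes are among the best known low-oxygen genes of cereals. The genes described here were a named PDC gene, ADH1, ADH2, HB1 and HB2, matched through RefSeq symbols and synonyms to the genes of the array annotation. Of the 5 genes 4 had a probe set, with 7 probe sets in all of 57258 tested, and ADH1 had none. The PDC gene was PDC2 (LOC4332519), read by a probe set whose name ends in S2_at, which chose the gene, and by another that ends in S1_at. HB1 (NSHB1) was read by 3 probe sets, here called by their endings S1_at, S1_s_at and S1_x_at. An annotation used by the study's authors names S1_s_at a putative HB2, so which gene it reads is not settled, and it is given under HB1 as in the array annotation. ADH2 (LOC4350054) and HB2 (NSHB2) had 1 probe set each. Homeobox genes that carry HB1 and HB2 as synonyms were left out.

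Whole seedlings of the indica rice cultivar IR64, without their seeds, were grown in hydroponic culture under 16 h light and 8 h dark, and their RNA was hybridized to 12 Affymetrix rice arrays, 3 biological replicates for each of 4 groups. The 0h seedlings were taken after 5 days of normal growth, before any transfer. The KP seedlings then spent 5 days on medium with 0.409 mM K2SO4 and the KM seedlings 5 days on medium with 0 mM. The KR seedlings were KM seedlings given 0.409 mM K2SO4 for 6 h. A treatment tag of the 0h samples names the deficient medium, against their titles and source names, and they were kept as 0h. The clock time of sampling is not given, so in KR the 6 h of resupply and 6 h of the day cannot be told apart.

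Values are log2 of the GCRMA intensity, a background-corrected and normalized brightness of a probe set, and they compare arrays for 1 probe set, not probe sets with each other. Changes are differences of log2 means with the standard error (SE) of limma, fitted over the 12 arrays with 1 mean per group. Adjustment over the 57258 probe sets followed Benjamini and Hochberg, and a call needed an adjusted p under 0.05 together with a change of at least 2-fold. Calls numbered 1457 for KM against KP, 2183 for KR against KM, 1834 for KR against KP, 6632 for KP against 0h and 6942 for KM against 0h. The medians of the KR arrays (2.79 to 2.83) exceeded those of the remaining arrays (2.70 to 2.74), and the mean of the KR medians lay 0.10 above that of KP. With equal medians 25.7% of the KR against KP calls were higher, against 35.8% as deposited. Pairs of arrays within a group had correlations from 0.985 to 0.997 on linear intensity and from 0.993 to 0.998 on log2 values.

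One array stood apart for these genes. The third 0h array was the highest of its group for 7 of 7 member probe sets, and it lay at least 0.5 above both other 0h arrays for all 7, which held for 3.2% of all probe sets and for 6.47% of the 20847 probe sets with a mean over 4. HB2 stood there 3.89 above the mean of the remaining 0h arrays, which is 14.9-fold. The same difference was 2.25 for HB1 (S1_at), 1.93 for ADH2 and 0.92 for PDC2 (S2_at). Since limma estimates 1 spread from all groups, this array enters the SE of every comparison, also of those without 0h. Where leaving it out changed a call or moved a value, the results are given with it and without it.

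PDC2 and ADH2 catalyse the first and the second step of ethanolic fermentation. At S2_at, PDC2 read 10.05, 9.94 and 10.92 on the 0h arrays, 9.54, 9.41 and 9.22 on the KP arrays, 10.83, 10.53 and 10.46 on the KM arrays and 11.27, 11.39 and 11.57 on the KR arrays. All KM arrays lay above all KP arrays, all KR arrays lay above all KM arrays, and the 0h arrays overlapped KM. The order of the means was KP (9.39 ± 0.16, SD, n = 3), 0h (10.30 ± 0.53), KM (10.61 ± 0.20) and KR (11.41 ± 0.15), with 0h and KM closer to each other than the spread of 0h. Its S1_at probe set read 3.83, 3.89 and 4.68 in 0h, 4.66, 4.41 and 4.10 in KP, 6.24, 5.88 and 5.98 in KM and 6.70, 6.87 and 7.45 in KR. It had the same order from KP to KM to KR without overlap, but its 0h arrays overlapped KP and lay below all KM arrays.

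ADH2 read 6.89, 7.73 and 9.24 in 0h, 9.04, 9.28 and 8.52 in KP, 10.17, 9.90 and 9.93 in KM and 9.92, 10.94 and 11.01 in KR. The means ran from 0h (7.95 ± 1.19, SD, n = 3) to KP (8.95 ± 0.39), KM (10.00 ± 0.14) and KR (10.63 ± 0.61). KM and KR arrays lay above all KP arrays, while KP overlapped 0h and KR overlapped KM through the first KR array.

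HB1 is a class 1 hemoglobin. At S1_at it read 6.26, 5.69 and 8.23 in 0h, 6.75, 7.11 and 6.50 in KP, 8.95, 8.57 and 8.78 in KM and 7.37, 8.24 and 8.43 in KR. KM was highest, with all its arrays above all KR arrays, and all KR arrays lay above all KP arrays. The means of 0h (6.73 ± 1.33, SD, n = 3) and KP (6.79 ± 0.31) could not be told apart within their spread, and KR (8.01 ± 0.57) and KM (8.77 ± 0.19) followed. S1_s_at of HB1 read 2.69, 2.68 and 5.22 in 0h, 6.19, 6.40 and 5.32 in KP, 8.77, 8.69 and 8.50 in KM and 7.95, 8.57 and 9.56 in KR. S1_x_at read 4.74, 4.84 and 6.86 in 0h, 6.93, 7.04 and 6.50 in KP, 8.92, 9.04 and 8.77 in KM and 7.89, 8.84 and 8.92 in KR. On these the KR arrays overlapped KM, unlike S1_at. The first and the second 0h array of S1_s_at were at the median of their arrays, near background, so the size of its differences from 0h is uncertain.

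HB2 read 3.53, 3.39 and 7.36 in 0h, 7.26, 7.46 and 5.99 in KP, 9.54, 9.37 and 9.25 in KM and 8.72, 9.19 and 10.53 in KR. All KM and KR arrays lay above all KP arrays, KM and KR overlapped, and the third 0h array fell inside the range of KP. The order of the means was 0h (4.76 ± 2.25, SD, n = 3), KP (6.90 ± 0.80), KM (9.39 ± 0.15) and KR (9.48 ± 0.94), of which KM and KR differed by less than the spread of KR.

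**Figure D1:**
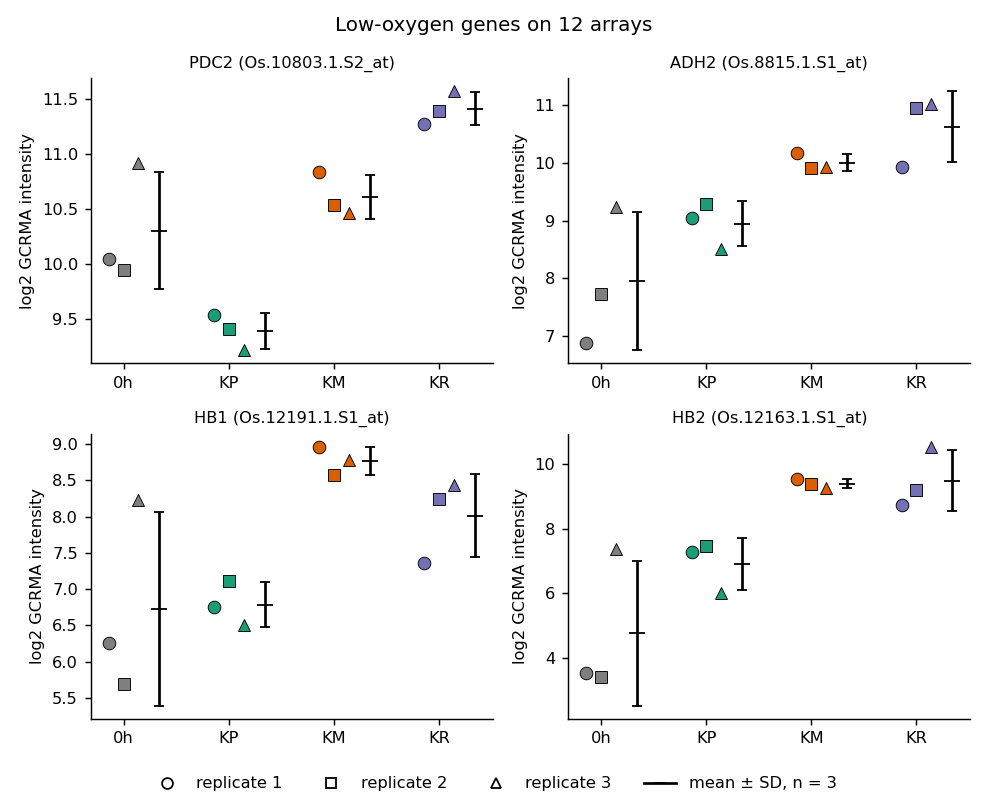
Log2 GCRMA intensity of 1 probe set for each of the 4 genes on the 12 arrays (vertical axis, its range set per gene), with symbols for the replicate number and bars for the mean ± SD of the 3 arrays of a group. The KM and KR arrays lie above all KP arrays in each panel, and the third 0h array lies above both other 0h arrays.

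In RefSeq order HB1 and HB2 lie on 1 chromosome with 40 protein-coding genes between them, and NSHB3 and NSHB4, both without a probe set, directly follow HB1 in a row with no gene between. ADH1 and ADH2 lie on 1 chromosome with 3 protein-coding genes between them. Probe sets whose names end in _s_at or _x_at can hold probes that also match related sequences, so readings of near copies cannot be told apart there. Over the 12 arrays S1_s_at of HB1 had r = 0.985 with HB2 and r = 0.852 with S1_at of HB1, and over the 9 KP, KM and KR arrays r was 0.993 and 0.912. Between the 4 genes (S2_at for PDC2, S1_at for HB1) r over the 12 arrays was 0.960 for ADH2 with HB2, 0.890 for HB1 with HB2, 0.822 for ADH2 with HB1, and 0.624 to 0.684 for PDC2 with the others. These values of PDC2 depend on its probe set. At S1_at PDC2 had r = 0.910 with ADH2, 0.884 with HB2 and 0.761 with HB1 over the 12 arrays. Over the 9 arrays without 0h PDC2 at S2_at had r = 0.933 with ADH2, 0.880 with HB2 and 0.685 with HB1. These coefficients are descriptions over arrays that fall into groups.

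KM against KP asked what 5 days without potassium changed. All 7 member probe sets had every KM array above every KP array, against 13.7% of all probe sets. PDC2 rose 2.33-fold (log2 change 1.22 ± 0.24, SE, limma adjusted p = 0.0110) at S2_at and 3.13-fold (1.64 ± 0.27, adjusted p = 0.00533) at S1_at. HB1 rose 6.42-fold at S1_s_at (2.68 ± 0.68, adjusted p = 0.0379) and 4.26-fold at S1_x_at (2.09 ± 0.53, adjusted p = 0.0358). Both calls of HB1 were lost without any single KP or KM array or without the second KR array (adjusted p from 0.0539 to 0.123), and that of S1_x_at also without the third KR array (adjusted p = 0.0508). The remaining probe set of HB1, S1_at, differed by 1.98 ± 0.58 and was not called (adjusted p = 0.0653). HB2 differed by 2.49 ± 0.99 (adjusted p = 0.195) and ADH2 by 1.06 ± 0.54 (adjusted p = 0.373), neither of them called. Thus 4 of 7 member probe sets were called higher and 0 lower in this comparison, where 0.954% of all probe sets were called higher and 1.59% lower.

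These calls moved with the third 0h array, although no 0h array takes part in the difference itself. Without it the SE of HB2 fell from 0.99 to 0.51 and that of HB1 (S1_at) from 0.58 to 0.30. HB1 then rose at an adjusted p of 0.00448 and HB2 at 0.0167, so that 6 of 7 member probe sets were called higher, against 0.995% of all probe sets. The 9 KP, KM and KR arrays alone gave the same count of 6, with adjusted p = 0.00779 for HB1 and 0.0315 for HB2, against 0.941% of all. Without the second 0h array S1_at of HB1 was called as well (adjusted p = 0.0423). ADH2 was the member without a call in each of these limma fits, at adjusted p = 0.108 without the third 0h array, 0.101 over 9 arrays and 0.0583 over the 6 KP and KM arrays.

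**Figure D2:**
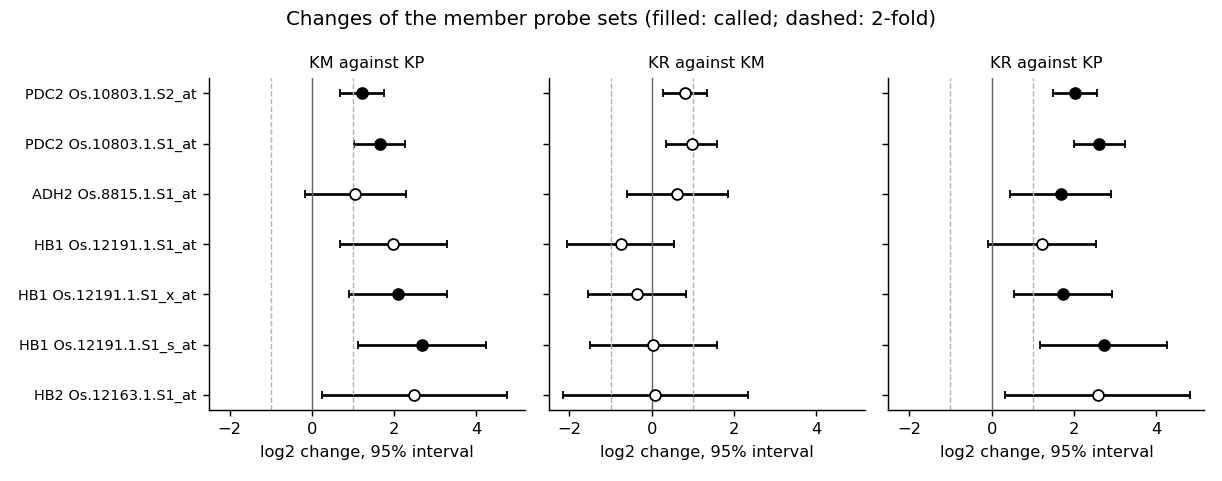
Log2 change with its 95% interval (horizontal axis, limma over 12 arrays) of the 7 member probe sets in 3 comparisons, filled where called, with dashed lines at 2-fold. The probe sets are called 4 times of 7 in KM against KP, 0 of 7 in KR against KM and 5 of 7 in KR against KP.

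KR against KM asked what 6 h of resupply changed, and it shares the KM arrays with the comparison before, so the values are only set side by side. No member probe set was called in either direction by limma over 12 arrays, without the third 0h array, over the 9 KP, KM and KR arrays or over the 6 KM and KR arrays, nor by the methods' t-test, where 1.75% of all probe sets were called higher and 2.06% lower by limma over 12 arrays. PDC2 was past the p threshold but under 2-fold, with 1.74-fold (0.80 ± 0.24, adjusted p = 0.0233) at S2_at and 1.96-fold (0.97 ± 0.27, adjusted p = 0.0190) at S1_at. Its unadjusted p values were 0.00810 and 0.00606, and no other member probe set had one under 0.05. PDC2 was also the only member whose KR arrays all lay above its KM arrays, a position that 52.7% of all probe sets had, and the arrays of KR have the higher medians. With equal medians the difference at S2_at was 0.70 (adjusted p = 0.0364). After quantile normalization it was 0.73 and no longer past the p threshold (adjusted p = 0.0587), as also without the second or the third KM array or the second or the third KR array (adjusted p from 0.0547 to 0.0707). S1_at missed the p threshold without the second or the third KM array or the third KR array (adjusted p from 0.0522 to 0.0645). It was called higher without the first KM array (1.08, adjusted p = 0.0294), the first KR array (1.13, adjusted p = 0.0222) or the second KR array (1.04, adjusted p = 0.0366).

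The other members gave wide intervals after resupply. HB1 differed by -0.75 at S1_at (95% interval -2.06 to 0.55, adjusted p = 0.308), with all KR arrays below all KM arrays, which 11.6% of all probe sets had. Its other probe sets differed by -0.36 and 0.04. ADH2 differed by 0.62 (95% interval -0.60 to 1.85, adjusted p = 0.370) and HB2 by 0.09 (95% interval -2.16 to 2.34, adjusted p = 0.949). Intervals of this width hold a 2-fold difference in both directions for HB2, and a 2-fold rise for ADH2.

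KR against KP compared resupplied seedlings with seedlings that never lacked potassium. All 7 member probe sets had every KR array above every KP array, as did 52.5% of all probe sets. PDC2 was 4.06-fold higher (2.02 ± 0.24, limma adjusted p = 0.000427) at S2_at and 6.14-fold higher (2.62 ± 0.27, adjusted p = 0.000257) at S1_at. ADH2 was 3.20-fold higher (1.68 ± 0.54, adjusted p = 0.0333). HB1 was called at S1_s_at (2.72 ± 0.68, adjusted p = 0.0125) and at S1_x_at (1.73 ± 0.53, adjusted p = 0.0268), but not at S1_at (1.23 ± 0.58, adjusted p = 0.113). The call of S1_x_at was lost without any single KP array or without the second or the third KR array (adjusted p from 0.0543 to 0.0835). HB2 was not called (2.58 ± 0.99, adjusted p = 0.0618).

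In this comparison 5 of 7 member probe sets were called higher, against 1.15% of all probe sets. Without the third 0h array 7 of 7 were called (1.18% of all), HB1 at adjusted p = 0.0135 and HB2 at 0.00569, and over the 9 arrays again 7 of 7 (1.15% of all). The call of ADH2 was lost without any single KP array, without the second KR array or without the third, with adjusted p from 0.0558 to 0.104. It was kept at equal medians (1.57, adjusted p = 0.0392) and lost after quantile normalization (1.61, adjusted p = 0.0587).

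**Figure D3:**
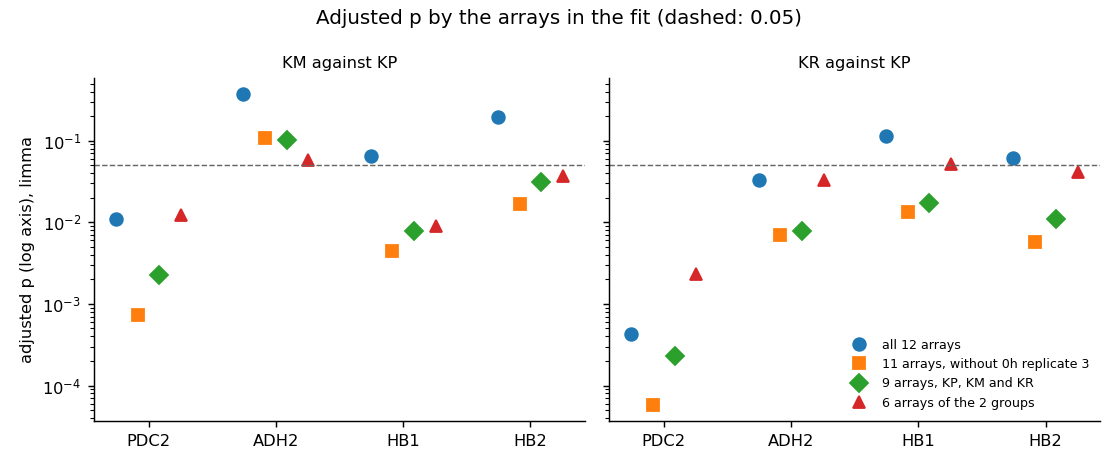
Adjusted p (vertical log axis) of 1 probe set per gene in KM against KP and KR against KP, by limma over all 12 arrays, without the third 0h array, over the 9 KP, KM and KR arrays and over the 6 arrays of the 2 groups, with a dashed line at 0.05. HB1 and HB2 in KM against KP lie above the line over 12 arrays (0.0653 and 0.195) and below it in the other fits, while ADH2 lies above it in all 4.

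From 0h to KP and from 0h to KM seedlings also aged by 5 days, and both comparisons share the 0h arrays. In KM against 0h ADH2 rose 4.14-fold (2.05 ± 0.54, limma adjusted p = 0.0185), HB1 4.11-fold at S1_at (2.04 ± 0.58, adjusted p = 0.0256) and HB2 by a log2 change of 4.63 ± 0.99 (adjusted p = 0.00586). The first and the second 0h array of HB2 were under 4, close to background, so the size of its rise is uncertain, and without the third 0h array it was 5.93 ± 0.57. The other HB1 probe sets were also called (5.12 ± 0.68 and 3.43 ± 0.53), and so was S1_at of PDC2 (1.90 ± 0.27), which makes 6 of 7 member probe sets against 6.19% of all called higher. At S2_at PDC2 differed by 0.31 ± 0.24 (adjusted p = 0.510), and without the third 0h array by 0.61 ± 0.14 (adjusted p = 0.0101), then past the p threshold and under 2-fold. Without that array ADH2 rose by 2.69 ± 0.39 and HB1 by 2.79 ± 0.33 at S1_at. The calls of ADH2 and of S1_at of HB1 were lost without the first 0h array (adjusted p = 0.0551 and 0.0914), without the second (0.0616 and 0.0861) and without the first KM array (0.0589 and 0.0774). That of HB1 at S1_at was lost also without the second or the third KM array (0.0550 and 0.0683).

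In KP against 0h 1 of 7 member probe sets was called higher, S1_s_at of HB1 (2.44 ± 0.68, adjusted p = 0.0254), where 5.87% of all were. That call was lost without the first or second 0h array or without the first or second KP array (adjusted p from 0.0778 to 0.0959). PDC2 at S2_at was 1.88-fold lower in KP (log2 change -0.91 ± 0.24, adjusted p = 0.0169), past the p threshold and under 2-fold, with all KP arrays below all 0h arrays, as for 22.7% of all probe sets. It was called lower without the first 0h array (-1.04, adjusted p = 0.0194) or without the second (-1.09, adjusted p = 0.0104), and stood at -0.61 without the third. The other PDC2 probe set differed by 0.26 ± 0.27 in the opposite direction (adjusted p = 0.701).

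HB2 and ADH2 in KP against 0h depended on the third 0h array. HB2 differed by 2.14 ± 0.99 (adjusted p = 0.181) with that array and by 3.44 ± 0.57 (adjusted p = 0.00193, called) without it. ADH2 differed by 0.99 ± 0.54 (adjusted p = 0.281) with it and by 1.64 ± 0.39 (adjusted p = 0.0136, called) without it. Then 4 of 7 member probe sets were called higher, against 5.93% of all probe sets. For HB1 at S1_at the difference of 0.06 ± 0.58 was not called under either choice (0.81 and adjusted p = 0.133 without the array).

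The members shared their place inside a group as well. The third KP array was the lowest of its group for 7 of 7 member probe sets, the first KR array was the lowest and the third KR array the highest of KR for 7 of 7, and the first KM array was the highest of KM for 6 of 7. Of all probe sets, 51.1% were lowest on the third KP array, 25.2% lowest on the first KR array, 23.0% highest on the third KR array and 59.5% highest on the first KM array. The span inside a group was widest in 0h for 7 of 7 member probe sets and narrowest in KM for all but S2_at of PDC2. The wide span in 0h restates the height of the third 0h array, and the shares of all probe sets with such spans were not counted. HB2 ran over 3.39 to 7.36 in 0h and over 9.25 to 9.54 in KM, and ADH2 over 6.89 to 9.24 and over 9.90 to 10.17.

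**Figure D4:**
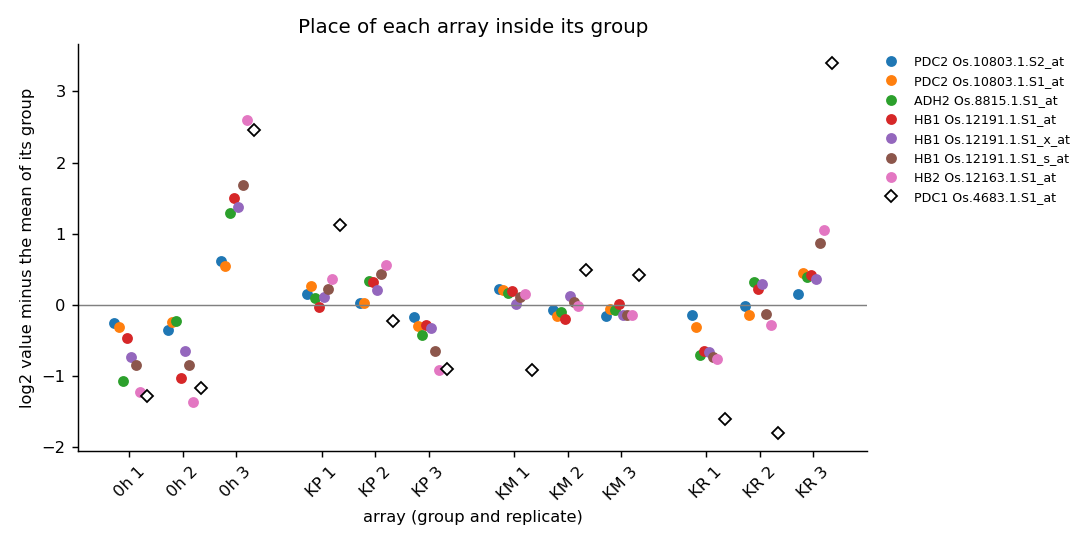
Log2 value minus the mean of its group (vertical axis) on each of the 12 arrays (horizontal axis) for the 7 member probe sets (coloured points) and for PDC1 (open diamonds). The 7 points of the third 0h array and of the third KR array lie above 0, those of the first KR array and of the third KP array below 0.

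PDC1, another pyruvate decarboxylase gene, read 4.67, 4.78 and 8.41 in 0h, 4.83, 3.47 and 2.80 in KP, 3.28, 4.69 and 4.62 in KM and 3.07, 2.88 and 8.08 in KR. Its highest values were thus on the third 0h array and the third KR array, where the members were also highest of their groups, and it was not called in any of the 5 comparisons. PDC3 stayed between 2.47 and 2.68 on the 12 arrays, near the array medians. Of the trehalose-phosphate phosphatase TPP7, known from anaerobic germination of rice, the probe set ending in A1_s_at read 8.02 on the third 0h array and 2.36 to 2.46 on the other 11 arrays. Its other probe set read 2.56 to 2.73 on all 12, so the reading rests on 1 probe set and 1 array.

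Sucrose synthases, hexokinases and the glycolytic enzymes bring carbon to pyruvate, the substrate of PDC. The list of 26 such genes with a probe set, invertases and PPDK1 among them, covers them only in part. No gene matched the names sought for phosphofructokinase, phosphoglucose isomerase or phosphoglycerate kinase. The study's authors list a pyruvate kinase outside the 26 as lower in KM and a phosphoglycerate kinase as higher. Of the 26, 1 was called higher in KM against KP and 0 lower, against 0.954% and 1.59% of all probe sets. Their median change was 0.19 against 0.00 over all probe sets. The members' median over their 4 genes was 1.60. The gene called was a hexokinase with the synonyms HXK4 and HXK8, which read 7.08, 6.35 and 6.49 in KP, 8.50, 8.16 and 8.18 in KM and 6.83, 7.02 and 6.97 in KR. It rose in KM against KP (1.64 ± 0.20, limma adjusted p = 0.00112) and was lower in KR than in KM (-1.34 ± 0.20, adjusted p = 0.00115).

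SUS4, a sucrose synthase, was called higher in KR against KM (1.24 ± 0.14, adjusted p = 0.000408) and in KR against KP (2.01 ± 0.14). It read 8.94, 8.36 and 8.63 in KP, 9.28, 9.54 and 9.44 in KM and 10.69, 10.53 and 10.74 in KR. PDC2 also had this order without overlap, and so did SUS2 of the same list and RBOHB and GLO1, described below. The share of all probe sets with this order was not counted, and 52.7% had all KR arrays above all KM arrays. GAPC3, a cytosolic glyceraldehyde-3-phosphate dehydrogenase, was called higher in KR against KP (1.11 ± 0.21, adjusted p = 0.00349) and read 11.19 on the third 0h array against 10.51 and 10.60 on the others. Its other probe sets were not called in KR against KP. In KR against KM the 26 genes had 1 call higher and 1 lower (1.75% and 2.06% of all probe sets). In KR against KP they had 2 higher and 0 lower (657 and 1177 of all 57258 probe sets). The medians were 0.04 and 0.10.

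**Figure D5:**
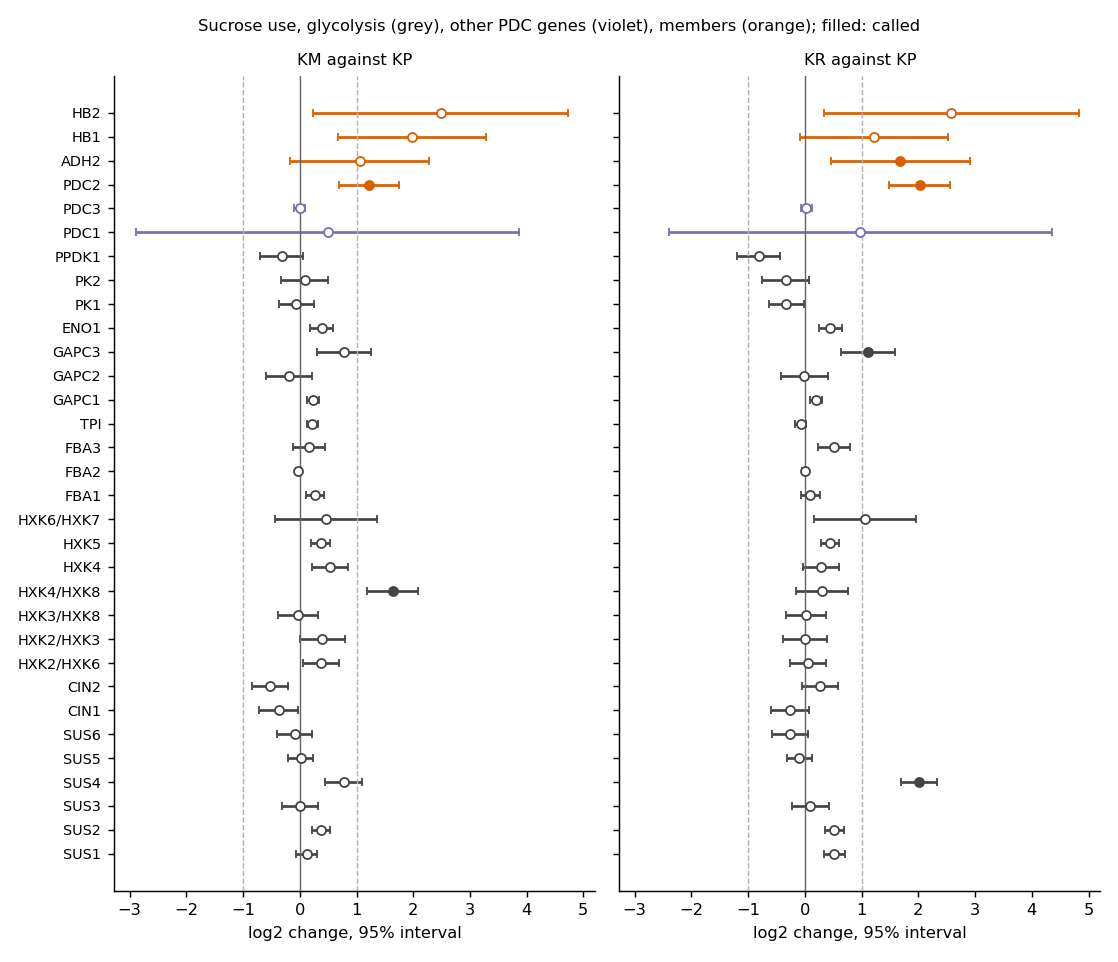
Log2 change with its 95% interval (horizontal axis, limma over 12 arrays) in KM against KP and KR against KP for the genes of sucrose use and glycolysis (grey), PDC1 and PDC3 (violet) and the 4 members (orange), filled where called, dashed lines at 2-fold. Apart from the members, the filled points are the hexokinase named HXK4/HXK8 in KM against KP and SUS4 and GAPC3 in KR against KP.

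A list of regulators of the low-oxygen response and of sugar supply under water held 11 genes with a probe set. Among them were the SNRK1 kinases and the MYBS factors. Its SK1 and SK2 were matched by name only and were not checked to be the SNORKEL genes, so they may be other genes. Of the 11, 0 were called higher and 1 lower in KM against KP (0.954% and 1.59% of all probe sets), with a median change of -0.01. That gene was TPP1, a trehalose-phosphate phosphatase, which fell (-1.56 ± 0.31, limma adjusted p = 0.0128) and was higher again in KR than in KM (1.78 ± 0.31, adjusted p = 0.00242). RBOHB, an NADPH oxidase that makes superoxide, was called higher in KR against KP (1.17 ± 0.12). Hemoglobin acts on nitric oxide, which nitrate reductase can make. The nitrate reductase gene NIA1 read 12.62, 12.77 and 12.48 in KP and 10.79, 10.60 and 10.54 in KM, and fell (-1.98 ± 0.12, adjusted p = 2.98e-05) where the HB1 and HB2 arrays lay higher. It rose in KR against KM (1.40 ± 0.12, adjusted p = 0.000127). The other 2 genes of its list, NRT2.2 and NRT2.3, were under 4 on all arrays.

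In bulk RNA of whole seedlings, fewer cells of a type and less RNA per cell cannot be told apart. The summed intensity of 6 green-tissue markers was 44295 to 48595 (KP), 31904 to 32706 (KM), 44498 to 44826 (KR) and 33750 to 36149 (0h). It was thus lower in KM than in KP and KR. Bright markers weigh most in this sum, and in KP CAB2R averaged 14.23, RCA 13.77 and RBCS 13.46, but GLK1 9.06. RBCS differed by 0.16 in KM against KP and was not called. Of the 6, 2 were called lower in KM against KP (GLK1, -3.16, and RCA, -1.21). Of all probe sets 1.59% were called lower there. The other 4 markers differed by -0.76 (CAB2R) to 0.27 (GLO1, with all KM arrays above all KP arrays). Another CAB2R probe set was called lower in KM against KP and higher in KR against KM. RCA was called lower also in KR against KP (-1.04). Its other probe sets were called lower in KM against KP but not in KR against KP. The sum of 5 root markers was 3506 to 5343 (KP), 2435 to 3029 (KM), 4834 to 5266 (KR) and 671 to 903 (0h), with 2 of 5 called lower in KM against KP (NAS1, -3.23, and NAS2, -2.89, which also answer to iron). These root markers did not move together, since NAS1 and NAS2 were called lower in KR against KP as well (-5.29 and -4.44), while LSI1, a silicon transporter, averaged 11.53 in KP, 11.17 in KM and 12.16 in KR. LSI1 was the brightest of the 5 in KP and weighs most in the sum. LSI2 averaged 9.17 in KP, 8.21 in KM and 8.95 in KR and was not called in KM against KP (-0.96). Of 8 seed-reserve markers 4 were under 4 on all arrays and 0 were called between KM and KP, and their sums were 497 to 604 (0h), 891 to 966 (KP), 982 to 1206 (KM) and 1149 to 1261 (KR). No marker was at 0. The part of tissue make-up in the members' differences was not tested.

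Genes with the pattern most like each member were ranked by Pearson's r over the 12 arrays among named probe sets that ranged over at least 1 log2 unit, of which there were 57. A gene symbol that starts with LOC did not count as a name, which left out most rice genes. The genes given here are thus the most alike of these 57 only. For PDC2 CRO1 (calreticulin, a calcium-binding chaperone) came first (r = 0.78), before PRX112 (0.68) and NCL1 (0.65). For ADH2 the order was RLK10 (0.82), HIRL1 (0.80) and HCT1 (0.73), and for HB1 ASA2 (an anthranilate synthase, 0.83), RLK10 (0.65) and HIRL1 (0.59). For HB2 it was RLK10 (0.88), HIRL1 (0.83) and HSFA2D (0.78). The 12 points fall into 4 groups, and over the 9 KP, KM and KR arrays the r of RLK10 with ADH2 was 0.60 and with HB2 0.73.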

How the data were processed

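The authors scanned the arrays with GCOS 1.2.1, as the submitters' processing notes name it, and normalized them by GCRMA in ArrayAssist. The deposited values are these intensity signals on a linear scale, taken here as log2 with a floor of 1 that changed 0 values. Of 57381 probe sets 123 are controls. The annotation gives 1 gene for 22436 of the others, several for 95 and none for 34727. limma 3.58.1 (R 4.3.3) was fitted to 12 arrays with 1 mean per group, no covariate, for 5 comparisons. Where a gene has several probe sets the brightest on average stood for it. The script was tested on simulated data.

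Named were all members, every list gene called in KM against KP or KR against KM, and for each member the 3 named genes with the highest r. RBOHB, GAPC3, SUS2, PDC1, PDC3, TPP7, NRT2.2, NRT2.3, CAB2R, RBCS, GLO1, LSI1 and LSI2 were named after their values were seen. The members and lists were chosen with earlier results of these data known.

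With 3 labelled biological replicates a group the number of arrays limits the precision. The p values of limma set a difference of means against the spread between replicates, estimated from all groups in the fit. An exact test of 3 against 3 arrays cannot go below 0.1 and was not used. Alternatives were quantile normalization, equal medians, an intensity trend, a filter on dim probe sets (a group mean over 4), a replicate block, 1.5-fold, the 2 groups only, the methods' t-test and each array left out. Fits on the 9 KP, KM and KR arrays were added after the data were seen. Sequences and genome positions are not used here, and the search for promoter motifs was not run.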

Additional observations from a re-analysis of the deposited data

How the results depend on the processing

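Changes are log2, p values adjusted. With 1.5-fold the calls were 3364 for KM against KP, 5066 for KR against KM, 4694 for KR against KP, 11367 for KP against 0h and 11592 for KM against 0h, and PDC2 was called in KR against KM (0.80) and KP against 0h (-0.91). The methods' t-test called 722 in KM against KP. Other fits left the values of the log2 changes as they were and moved the p. HB1 in KM against KP (1.98) was called with the trend (adjusted p = 0.0429), the filter (0.0131), the 2 groups (0.00901), the methods' t-test (0.0360), 9 arrays (0.00779) and 9 arrays with the replicate block (0.0297), and HB1 in KR against KP (1.23) with 9 arrays (0.0173) and with their block (0.0441). HB2 was called in KM against KP (2.49) with the 2 groups (0.0366) and 9 arrays (0.0315), but not with 9 arrays and the block, in KR against KP (2.58) with the trend (0.0415), the filter (0.0390), the 2 groups (0.0412), 9 arrays (0.0108) and their block (0.0383), and in KP against 0h (2.14) with the filter (0.0489). Calls lost were ADH2 in KR against KP after quantile normalization (1.61, adjusted p = 0.0587) and by the methods' t-test (1.68, 0.0539), ADH2 in KM against 0h (2.05) with the 2 groups (0.0866) and the t-test (0.154), HB1 in KM against 0h (2.04) with the same (0.122 and 0.202) and HB2 in KM against 0h (4.63) by the t-test (0.0968). Other probe sets of PDC2 gave 0.26 in KP against 0h, reversed, and 1.90 in KM against 0h, called. Those of HB1 gave 2.68 and 2.09 (KM against KP), 2.72 and 1.73 (KR against KP) and 2.44 (KP against 0h), all called, and 0.0401 in KR against KM, reversed. HB2 in KR against KM was -0.0055 with equal medians. The cause of these shifts was not tested.

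With each array left out, KP against 0h ran from -1.09 to -0.61 for PDC2, 0.46 to 1.64 for ADH2, -0.45 to 0.81 for HB1 (below 0 without the first 0h array, -0.17, the second 0h array, -0.45, or the second KP array, -0.10) and 1.46 to 3.44 for HB2. KM against 0h ran from 0.13 to 0.61 for PDC2, 1.52 to 2.69 for ADH2, 1.53 to 2.79 for HB1 and 3.95 to 5.93 for HB2. KR against KP ran from 1.46 to 2.03 for ADH2, 1.02 to 1.55 for HB1 and 2.05 to 2.96 for HB2. KM against KP ran from 1.84 to 2.14 for HB1 and 2.03 to 2.76 for HB2, and KR against KM from -0.43 (without the third KR array) to 0.47 for HB2. PDC2 kept its calls of KM and of KR against KP in each of these fits. Deviations of same-numbered arrays from their group means, over all probe sets, had correlations from -0.113 to 0.162. The highest was that of the third 0h array with the third KR array. Dim probe sets enter these correlations, so they cannot settle whether the replicate numbers pair the samples. The replicate block over 12 arrays gave 1361, 2158 and 1801 calls for the KM to KP, KR to KM and KR to KP comparisons and 6576 and 6894 for KP and KM to 0h, and of the 7 member probe sets changed the calls of S1_s_at and S1_x_at of HB1 in KM against KP, which were lost (adjusted p = 0.0619 and 0.0563).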

Other observations

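Once RefSeq synonyms were read as names as well, 1752 probe sets of 1537 genes could be ranked by likeness, a choice made after the ranking over 57 probe sets was seen. The r values are over 12 arrays in 4 groups and are given as descriptions. PDC2 was then followed most closely by EF-Gmt, a mitochondrial elongation factor (r = 0.95, and 0.98 over the 9 KP, KM and KR arrays), which averaged 9.16 in KP, 9.62 in KM and 10.07 in KR, and by ABCG44 (0.90) and OsC3H37 (0.90), which averaged 7.91, 8.97 and 10.32. ADH2 was followed by OsTLP3 (0.95), GAPC3 (0.94) and G6PGH1, an enzyme of the pentose phosphate pathway (0.93). HB1 was followed by the transporter ABCG37 (0.91) and the high-affinity potassium transporter HAK1 (0.85), before ASA2 (0.83). HB2 was followed by G6PGH1 (0.97), the kinase CIPK14 (0.93) and ARD1 (0.93), with the monosaccharide transporter MST3 (0.93) and HAK1 (0.93) next. Over the 9 KP, KM and KR arrays r with HB2 was 0.91 for G6PGH1, 0.78 for CIPK14, 0.90 for ARD1, 0.79 for MST3 and 0.71 for HAK1. The ranking over 12 arrays includes the third 0h array, so the choice of these genes favoured high values there. On that array HAK1 stood 1.41 above the mean of the remaining 0h arrays, MST3 1.45, ABCG37 1.49 and OsC3H37 2.66, but EF-Gmt 0.18.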
